A study of Homo sapiens with 6 samples.

Results

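The genes described here encode the enzymes that shorten poly(A) tails, the RNA exosome with its cofactors, and the LSM proteins, in cells whose mRNA export adaptor ALYREF was knocked down. They are all rows of the deposited tables with a CNOT, EXOSC or LSM symbol followed by a digit, together with XRN2, PARN, PAN2, PAN3, DIS3, DIS3L, DIS3L2, SKIV2L2, TTC37, ZFC3H1, ZCCHC8, TOB1 and TOB2, and without LSM14A and LSM14B. This gave 44 of 11679 genes. SKIV2L, which the same rule names, has no row. The rule reads gene symbols alone, but it was drawn up with earlier results of these data in view.

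Polyadenylated RNA was sequenced from 786-O, an established human clear cell renal cell carcinoma line. Cells in RPMI medium with 10% serum were transfected with ALYREF siRNA5 (2 libraries), ALYREF siRNA8 (2 libraries) or a non-targeting control siRNA, here NTC (2 libraries), and all were harvested 48 h later. The knockdown is transient and partial, in 1 cell line, and both ALYREF siRNAs were set against the same NTC libraries. The files held 1 mean per gene over the libraries and 1 fold change per siRNA, so that values of single libraries and their depth are not given here. Replicate values therefore cannot be shown. In such bulk RNA, fewer cells with a transcript and less of it per cell cannot be told apart. Nothing says that duplicates came from separate cultures, so the p-values may rest on technical spread alone.

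ALYREF, the target, stood at 5.67% of the NTC level with siRNA5 and at 7.83% with siRNA8 per the authors' deposited tables. The kidney label was checked on its markers. Of 10 markers of kidney epithelium and clear cell carcinoma, 9 have a row, and CA9 has none. Their means ran between 182 normalized counts for ANPEP and 53093 for VIM. The next highest after VIM was CA12 at 6260, and PAX8 and PAX2 had 2354 and 336. Of 5 leukocyte markers CD68 alone has a row, and none of the 4 endothelial and 3 keratinocyte markers has one.

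Decay of most mRNAs starts with removal of the poly(A) tail. PAN2 and PAN3 trim the tail first, and the CCR4-NOT complex, built on the CNOT1 scaffold, then removes most of it. The shortened mRNA is either decapped after the ring of LSM1 to LSM7 binds its end, or degraded from its 3′ end by the exosome. The exosome is a barrel of the EXOSC proteins that feeds RNA to the nucleases DIS3 and EXOSC10, and in the nucleus it also removes transcripts that were not processed or exported. A related LSM ring, with LSM8 in place of LSM1, sits on U6 snRNA of the spliceosome, while LSM10 and LSM11 belong to the U7 particle that trims histone mRNAs.

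Fold changes are given on the log2 scale as an ALYREF siRNA over NTC, each with its standard error (SE). None of the sources used here says whether the authors' fit shrank fold changes towards 0. Shrinkage would act most on genes with low means, such as EXOSC6. A gene was called when the adjusted p of the authors' Wald test was under 0.05. With siRNA5, 9 of the 44 genes rose, 10 fell and 25 were not called per the authors' deposited table. The share called was 43.2%, against 46.4% of all genes, with 24.4% of all genes higher and 22.0% lower. With siRNA8, 10 rose, 4 fell and 30 were not called, a share of 31.8% against 41.5% of all genes, with 21.0% of all genes higher and 20.5% lower. Neither share stood above the background of its comparison. Among genes with a mean of at least 100, which take in all 44, the background was 53.8% with siRNA5 and 47.8% with siRNA8. The median log2 change of the 44 genes was -0.01 with siRNA5 and 0.05 with siRNA8, beside 0.01 and 0.01 for all genes. The called changes were mostly small, with a median size of 0.30 for the 19 called with siRNA5 and 0.29 for the 14 called with siRNA8, against 0.42 and 0.41 for all called genes. These sizes are not matched for precision. With siRNA5 the median SE was 0.086 for the 44 genes and 0.107 for all genes, and a lower SE lets smaller changes be called. The 10 called changes under 0.3 in size with siRNA5 and the 7 with siRNA8 all lost the call with Bonferroni adjustment, with a test against an absolute log2 change of 0.1, and with standard errors 1.5 times as large. With siRNA5 the size reached 2-fold for EXOSC6 alone, and with siRNA8 for none of them.

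**Figure D1:**
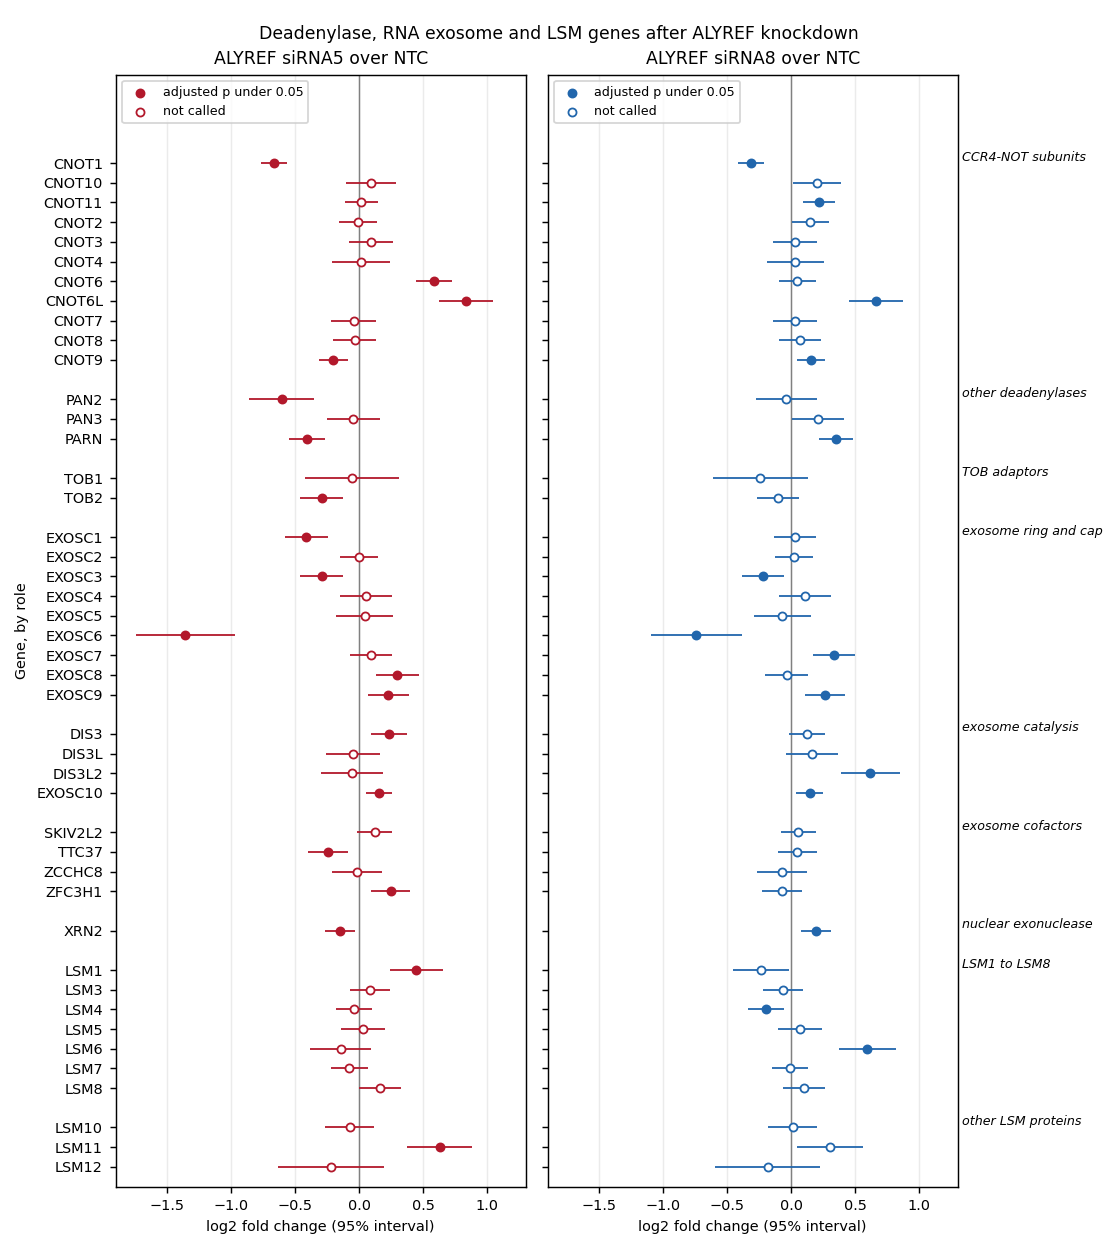
Log2 fold change of each of the 44 genes with its 95% interval, for siRNA5 over NTC on the left and siRNA8 over NTC on the right, ordered by role. Filled points have an adjusted p under 0.05. EXOSC6 lies farthest to the left in both panels, at -1.36 and -0.74, and CNOT6L farthest to the right, at 0.84 and 0.66.

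The 44 genes were expressed above the typical gene, with a median mean of 723 normalized counts against 459 for all genes, and their means ran between 110 for LSM12 and 6466 for CNOT1. The median SE of their log2 change was 0.086 with siRNA5 and 0.084 with siRNA8 per the authors' deposited tables. Of the 25 genes not called with siRNA5, 21 had a 95% interval wholly between -0.3 and 0.3, that is, within 1.23-fold of NTC. LSM6, LSM8, LSM12 and TOB1 had wider ones. Of the 30 not called with siRNA8, 22 had such an interval. It reached past these bounds for CNOT10, DIS3L, EXOSC4, LSM1, LSM11, LSM12, PAN3 and TOB1. For 5 of the 30, namely CNOT10, CNOT2, LSM1, LSM11 and PAN3, the interval left out 0 before adjustment, against 0 of the 25 with siRNA5. In the authors' Wald test 19 of the 44 genes had an unadjusted p under 0.05 with siRNA5, and 19 with siRNA8. Of all 11679 genes, 6051 had one with siRNA5 and 5631 with siRNA8. Neither count of the 44 thus stood above its background.

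**Figure D2:**
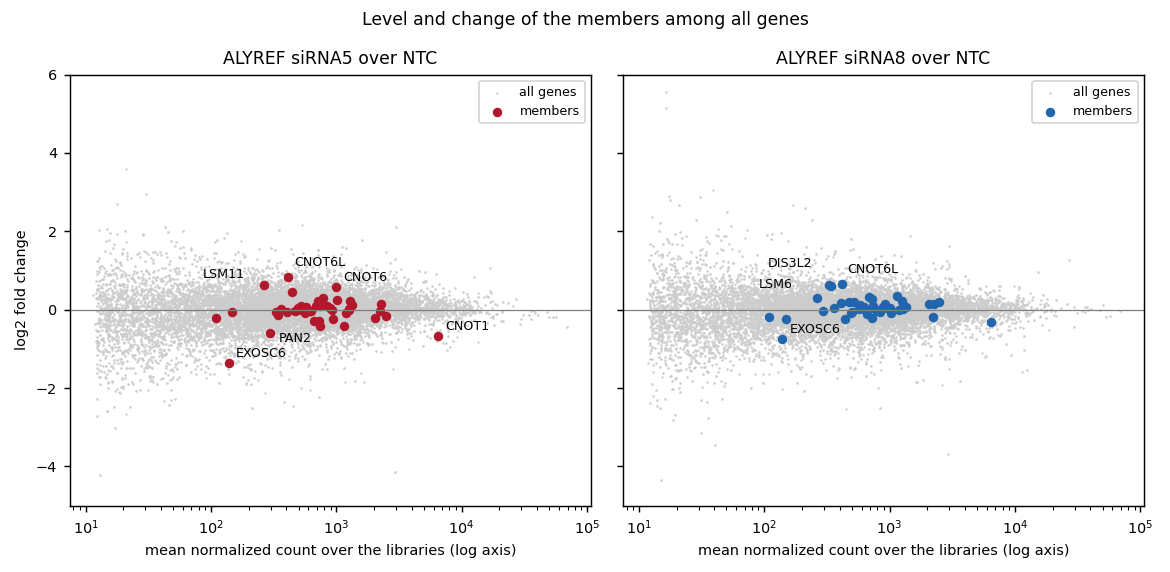
Log2 fold change against the mean normalized count over the libraries (log axis), for siRNA5 over NTC on the left and siRNA8 over NTC on the right, with all 11679 genes in grey and the 44 genes in colour. Genes with a change of at least 0.55 in size are named. EXOSC6, with a mean of 139, is among the lowest of the 44 by level, and CNOT1, with a mean of 6466, is the highest.

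In CCR4-NOT, the scaffold CNOT1 fell with either siRNA, and the catalytic subunits of the CCR4 type, CNOT6 and CNOT6L, rose with siRNA5. CNOT1, on which the other subunits assemble, fell by 0.67 (SE 0.052, adjusted p = 2.51e-36) with siRNA5 and fell by 0.31 (SE 0.051, adjusted p = 9.65e-09) with siRNA8 per the authors' deposited tables. Its level was 63.0% of NTC with siRNA5, with a 95% interval of 58.7 to 67.6, and 80.6% with siRNA8, with an interval of 75.2 to 86.3. These intervals do not overlap. Its fall was deeper with siRNA5 by a difference of -0.35 (SE 0.072, adjusted p = 9.14e-06). Differences between the siRNAs are tested throughout on the difference of their log2 changes. The SE of this difference counts the spread of the shared NTC libraries in both changes, and is therefore an upper bound.

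CNOT6L and CNOT6 are closely related deadenylases, either of which can occupy the same place in the complex. CNOT6L rose by 0.84 (SE 0.11, adjusted p = 2.32e-13) with siRNA5 and by 0.66 (SE 0.11, adjusted p = 1.24e-08) with siRNA8 per the authors' deposited tables, to 178% of NTC (95% interval 154 to 207) and 158% (95% interval 137 to 184). The difference between the siRNAs was 0.17 and did not pass the test (adjusted p = 0.436), with a 95% interval between -0.13 and 0.47. CNOT6 rose by 0.58 (SE 0.071, adjusted p = 3.62e-15) with siRNA5, while with siRNA8 its log2 change was 0.05 (SE 0.073, adjusted p = 0.618) per the authors' deposited tables. For CNOT6 the difference between the siRNAs passed the test, at 0.53 (SE 0.10, adjusted p = 1.59e-06). CNOT6 was thus called with siRNA5 alone, whereas CNOT6L was called with either siRNA. The change of CNOT6 minus that of CNOT6L was -0.25 with siRNA5 (95% interval -0.50 to 0.00), and for siRNA8 the value was -0.61 (95% interval -0.87 to -0.36).

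The other catalytic pair, CNOT7 and CNOT8, was not called with either siRNA. With siRNA5 CNOT7 stood at 97.1% of NTC, with a 95% interval of 86.0 to 110, and with siRNA8 at 102%, with an interval of 90.5 to 115, per the authors' deposited tables. CNOT8 stood at 97.5% (95% interval 86.9 to 109) and 105% (95% interval 93.7 to 118) per the authors' deposited tables. CNOT9, a subunit that docks RNA-binding proteins and partners of the miRNA pathway, had opposite signs with the siRNAs. It fell by 0.20 (SE 0.057, adjusted p = 0.00146) with siRNA5 and rose by 0.16 (SE 0.056, adjusted p = 0.0152) with siRNA8 per the authors' deposited tables, and the difference of -0.36 passed its test (SE 0.080, adjusted p = 6.09e-05).

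Among the remaining subunits, CNOT11, which with CNOT10 binds the amino-terminal part of CNOT1, had a log2 change of 0.02 (SE 0.066) with siRNA5 and, when siRNA8 was used, rose by 0.22 (SE 0.065, adjusted p = 0.00279) per the authors' deposited tables. The difference between the siRNAs did not pass for CNOT11 (adjusted p = 0.0802). CNOT10, CNOT2, CNOT3 and CNOT4, a ubiquitin ligase, were not called with either siRNA, with log2 changes between -0.01 and 0.09 with siRNA5 and between 0.03 and 0.20 with siRNA8 per the authors' deposited tables. Of the 11 CNOT genes in all, 2 rose and 2 fell with siRNA5, where 24.4% of all genes were higher and 22.0% lower. With siRNA8, 3 of the 11 rose and 1 fell, where the shares of all genes were 21.0% and 20.5%.

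Of the other deadenylases, PAN2 and PARN fell with siRNA5. PAN2, the nuclease that with its partner PAN3 trims long tails, fell by 0.61 (SE 0.13, adjusted p = 1.47e-05) with siRNA5 to 65.7% of NTC, and its log2 change with siRNA8 was -0.04 (SE 0.12, adjusted p = 0.839) per the authors' deposited tables. PAN2 differed between the siRNAs by -0.57 (SE 0.18, adjusted p = 0.0058). PAN2 overlaps exons of CNPY2 on the same strand in the GENCODE annotation, where counting can leave reads ambiguous. PAN3, which anchors PAN2 to the mRNA, was not called, with log2 changes of -0.05 (SE 0.11) and 0.21 (SE 0.10) per the authors' deposited tables.

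PARN, a deadenylase that also matures small nucleolar RNAs and the telomerase RNA, moved in opposite directions. It fell by 0.41 (SE 0.071, adjusted p = 9.13e-08) with siRNA5 and rose by 0.35 (SE 0.067, adjusted p = 1.23e-06) with siRNA8 per the authors' deposited tables. Its level was 75.5% of NTC with siRNA5 (95% interval 68.5 to 83.1), and for siRNA8 the value was 128% (95% interval 117 to 140). The difference of -0.76 (SE 0.098, adjusted p = 2.97e-13) was the largest between the siRNAs among the 44 genes. TOB2, an adaptor that brings CCR4-NOT to mRNAs through the poly(A)-binding protein, fell by 0.29 (SE 0.086, adjusted p = 0.00231) with siRNA5, and its log2 change with siRNA8 was -0.10 (SE 0.084) per the authors' deposited tables. Its relative TOB1 was not called, with wide 95% intervals of 74.7 to 124% of NTC with siRNA5 and 65.6 to 109% with siRNA8 around a low mean of 148.

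**Figure D3:**
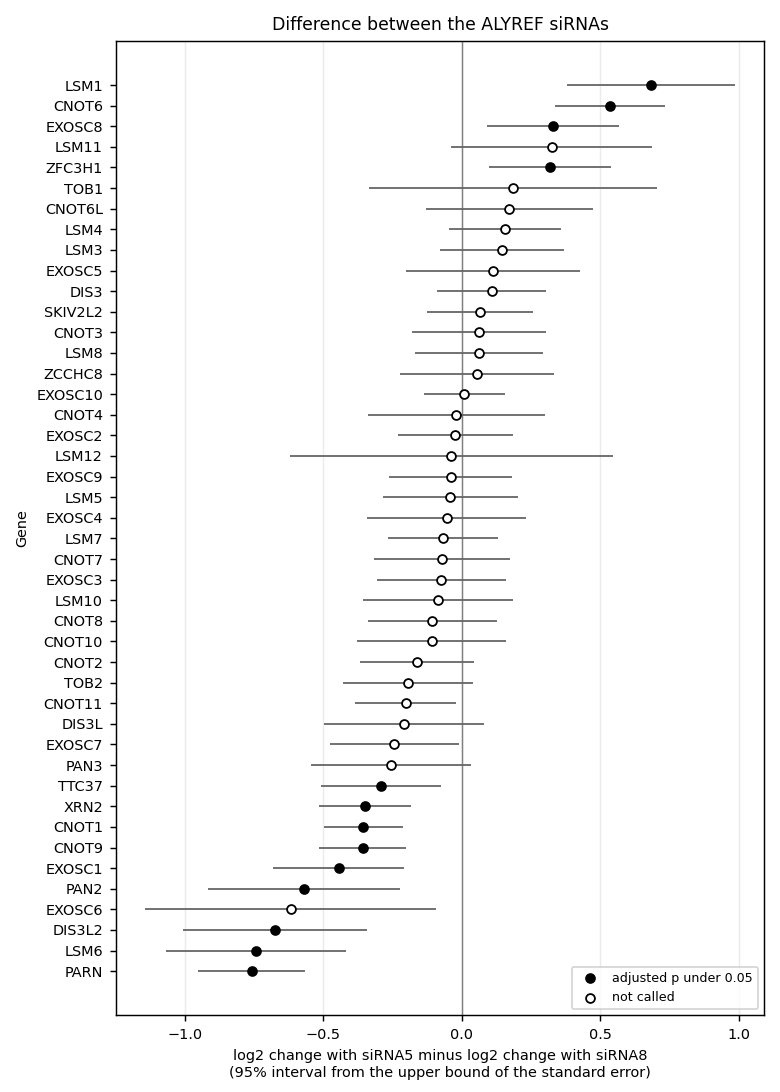
Log2 change with siRNA5 minus log2 change with siRNA8 for each of the 44 genes, in order of size, with 95% intervals from the upper bound of the standard error; filled points have an adjusted p under 0.05. LSM1, at 0.68, and CNOT6, at 0.53, lie at the top, and DIS3L2, LSM6 and PARN, at -0.67, -0.74 and -0.76, at the bottom.

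The exosome barrel has 6 ring proteins, EXOSC4 to EXOSC9, and the cap proteins EXOSC1, EXOSC2 and EXOSC3. Of these 9 genes, 2 rose and 3 fell with siRNA5, a share called of 55.6% beside 46.4% of all genes. With siRNA8, 2 rose and 2 fell, a share of 44.4% beside 41.5%. EXOSC6, a ring protein also called MTR3, had the deepest fall of the 44 genes with either siRNA. It fell by 1.36 (SE 0.20, adjusted p = 8.12e-11) with siRNA5 and by 0.74 (SE 0.18, adjusted p = 0.000206) with siRNA8 per the authors' deposited tables. Its level was 39.0% of NTC with siRNA5 (95% interval 29.8 to 51.0), and for siRNA8 the value was 59.9% (95% interval 46.9 to 76.5). The difference of -0.62 did not pass the test (SE 0.27, adjusted p = 0.0624), with a 95% interval between -1.14 and -0.09, while it passed when the variance of the shared controls was taken out of the SE (adjusted p = 0.00657). With Bonferroni adjustment the fall of EXOSC6 with siRNA8 was not called (adjusted p = 0.475).

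EXOSC6 also stands apart in its gene structure and its level. In the GENCODE annotation it is the 1 gene of the 44 whose coding transcripts have a single exon. Its mean of 139 normalized counts came to 27.0 per kb of annotated exon, the lowest of the 44 genes on this scale. The other 8 barrel genes had between 402 per kb for EXOSC3 and 807 per kb for EXOSC1 as mean levels over the libraries. A long annotated exon of 5153 nt lowers this value, since exon parts that the cells do not use count toward the length.

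**Figure D4:**
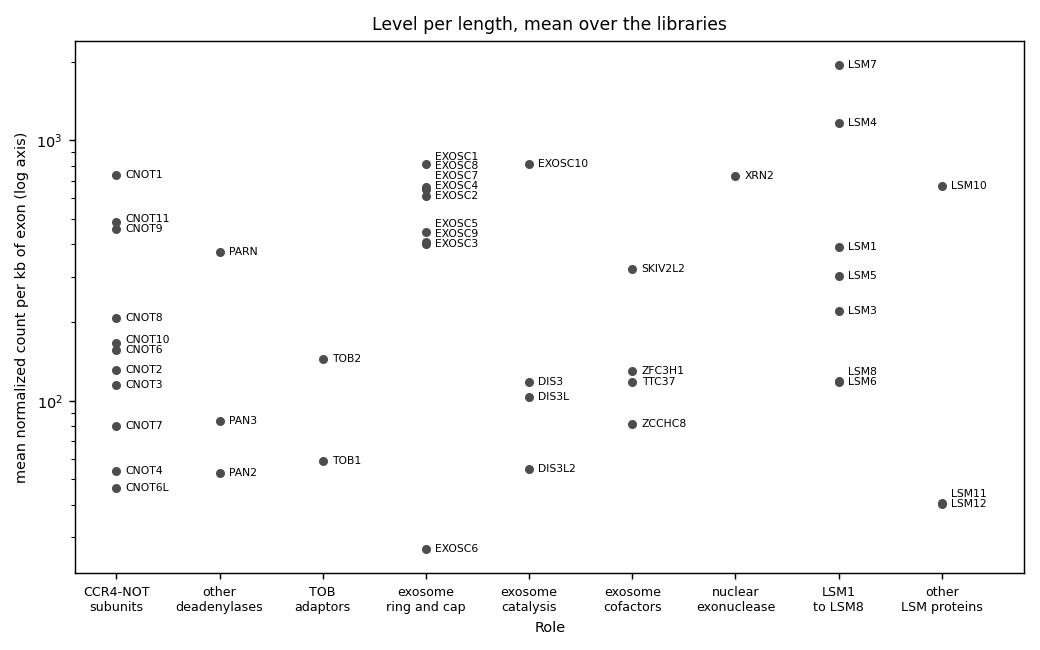
Mean normalized count over the libraries per kb of annotated exon (log axis) for each of the 44 genes, by role; each point is 1 gene and no error is given for these means. EXOSC6, at 27.0 per kb, lies far below the other barrel genes, and LSM7, at 1945 per kb, is the highest.

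The promoter windows of EXOSC6, with the deepest fall, and of PARN, with the largest difference between the siRNAs, are shown for reference, each 300 bases long, with 250 before and 50 after the start of the gene, 5′ to 3′ along the gene, from RefSeq on GRCh38.p14, a build other than that of the deposited files. EXOSC6 is chr16:70251891-70252190 and PARN is chr16:14630211-14630510, both on the minus strand. Capitals mark matches, on either strand, to the GC box (GGGCGG), the ETS motif (CCGGAAG), the NRF1 core (GCATGCG), the CCAAT box (CCAAT), the TATA box (TATAAA) or the cAMP response element (TGACGTCA).
EXOSC6: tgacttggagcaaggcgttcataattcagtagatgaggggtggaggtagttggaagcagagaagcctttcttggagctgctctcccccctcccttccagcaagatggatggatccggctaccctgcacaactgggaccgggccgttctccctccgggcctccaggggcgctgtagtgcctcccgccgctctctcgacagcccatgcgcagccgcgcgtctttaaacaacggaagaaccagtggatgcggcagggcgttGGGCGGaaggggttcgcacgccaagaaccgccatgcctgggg
PARN: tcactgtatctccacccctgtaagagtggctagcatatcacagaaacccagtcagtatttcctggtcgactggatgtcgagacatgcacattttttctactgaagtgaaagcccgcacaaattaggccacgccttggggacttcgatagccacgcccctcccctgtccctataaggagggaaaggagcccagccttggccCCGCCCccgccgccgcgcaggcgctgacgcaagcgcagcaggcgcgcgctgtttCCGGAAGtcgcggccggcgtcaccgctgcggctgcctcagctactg

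The EXOSC6 window held 1 GC box and no other of these motifs, and the PARN window held 1 GC box and 1 ETS match. A window was found for 38 of the 44 genes, 51 windows in all since some genes have several starts. The GC box was present in 38 of these 51 windows, against 45.0% of all 35116 windows, the NRF1 core in 3 against 3.91%, the ETS motif in 8 against 10.3%, CCAAT in 18 against 34.6%, TGACGTCA in 2 against 1.85% and TATAAA in 1 against 11.5%. The 35116 windows were not limited to genes with a row here, so these shares are not matched for expression. These are matches of letters and say nothing of binding.

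Of the cap proteins, EXOSC1 fell by 0.41 (SE 0.087, adjusted p = 1.35e-05) with siRNA5, and its log2 change with siRNA8 was 0.03 (SE 0.083) per the authors' deposited tables, a difference of -0.44 that passed its test (adjusted p = 0.00133). EXOSC3 fell by 0.29 (SE 0.085, adjusted p = 0.00193) with siRNA5 and by 0.22 (SE 0.084, adjusted p = 0.0237) with siRNA8 per the authors' deposited tables. EXOSC2, the third cap protein, stood at 100% of NTC with siRNA5 (95% interval 90.4 to 111), and for siRNA8 the value was 102% (95% interval 91.8 to 112) per the authors' deposited tables. The cap genes thus had both called falls and a gene close to the NTC level.

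Other ring genes rose. EXOSC9 rose by 0.23 (SE 0.081, adjusted p = 0.0125) with siRNA5 and by 0.27 (SE 0.080, adjusted p = 0.00302) with siRNA8 per the authors' deposited tables. EXOSC8 rose by 0.30 (SE 0.085, adjusted p = 0.00178) with siRNA5, with a log2 change of -0.03 (SE 0.087) with siRNA8 per the authors' deposited tables and a difference of 0.33 (SE 0.12, adjusted p = 0.0239). EXOSC7 had a log2 change of 0.09 (SE 0.085) with siRNA5 and, when siRNA8 was used, rose by 0.33 (SE 0.082, adjusted p = 0.000257) per the authors' deposited tables, and this difference did not pass (adjusted p = 0.105). The rise of EXOSC7 was not called with Bonferroni adjustment (adjusted p = 0.603). EXOSC4 and EXOSC5 were not called, with levels between 95.4 and 108% of NTC per the authors' deposited tables. Changes of barrel genes thus differed in sign from subunit to subunit, also within 1 comparison.

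Of the 4 nuclease genes EXOSC10, DIS3, DIS3L and DIS3L2, 2 rose and 0 fell with each siRNA. The share called was 50% in each comparison, beside 46.4% and 41.5% of all genes. The rises of EXOSC10 and DIS3 were under 0.3 in size and lost the call in each stricter setting named above. EXOSC10, the nuclease of the nuclear and nucleolar exosome, rose by 0.15 (SE 0.053, adjusted p = 0.0102) with siRNA5 and by 0.14 (SE 0.053, adjusted p = 0.0176) with siRNA8 per the authors' deposited tables. DIS3, the main catalytic subunit in the nucleus, rose by 0.23 (SE 0.071, adjusted p = 0.00349) with siRNA5, and its log2 change with siRNA8 was 0.12 (SE 0.071, adjusted p = 0.155) per the authors' deposited tables. DIS3L, its cytoplasmic relative, was not called, at 96.8 and 112% of NTC per the authors' deposited tables.

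DIS3L2 is a cytoplasmic nuclease that works outside the exosome and prefers RNAs with uridine tails. Its log2 change with siRNA5 was -0.05 (SE 0.12, adjusted p = 0.747), whereas siRNA8 brought it to 154% of NTC (95% interval 131 to 180), a rise of 0.62 (SE 0.12, adjusted p = 7.63e-07) per the authors' deposited tables. The difference of -0.67 passed its test (SE 0.17, adjusted p = 0.000438). With siRNA8 the change of DIS3L2 exceeded that of DIS3 by 0.50 (95% interval 0.23 to 0.76) and that of DIS3L by 0.46 (95% interval 0.15 to 0.76). With siRNA5 the change of DIS3L2 minus that of DIS3 was -0.29 (95% interval -0.57 to -0.01), the opposite sign. Minus that of DIS3L it was -0.01 (95% interval -0.33 to 0.31). An annotated transcript on the same strand, AC068134.3, overlaps exons of DIS3L2.

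Of the 4 exosome cofactors, 1 rose and 1 fell with siRNA5, where 46.4% of all genes were called. With siRNA8, where 41.5% of all genes were called, the authors' Wald test called 0 of the 4, also at an unadjusted p under 0.05. SKIV2L2, the helicase MTR4 that unwinds RNA for the nuclear exosome, was not called, with log2 changes of 0.12 (SE 0.069) and 0.06 (SE 0.069) per the authors' deposited tables. ZCCHC8, which with MTR4 forms the NEXT adaptor for short non-polyadenylated RNAs, stood at 98.7% of NTC with siRNA5 (95% interval 86.1 to 113) and had a 95% interval of 83.0 to 109% with siRNA8 per the authors' deposited tables. ZFC3H1, of the PAXT adaptor that directs polyadenylated nuclear RNA to the exosome, rose by 0.25 (SE 0.078, adjusted p = 0.00512) with siRNA5, with a log2 change of -0.07 (SE 0.079) with siRNA8 per the authors' deposited tables. TTC37, a subunit of the cytoplasmic Ski complex, fell by 0.24 (SE 0.079, adjusted p = 0.00652) with siRNA5, with a log2 change of 0.05 (SE 0.077) with siRNA8 per the authors' deposited tables. The differences between the siRNAs passed for ZFC3H1, at 0.32 (adjusted p = 0.0165), and for TTC37, at -0.29 (adjusted p = 0.0305).

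XRN2, the nuclear 5′ to 3′ exonuclease that acts in transcription termination, fell by 0.15 (SE 0.061, adjusted p = 0.0287) with siRNA5 and rose by 0.20 (SE 0.059, adjusted p = 0.00345) with siRNA8 per the authors' deposited tables. The difference of -0.35 passed its test (SE 0.085, adjusted p = 0.000279). PARN, CNOT9 and XRN2 were lower than NTC with siRNA5 and higher than NTC with siRNA8, each called on either side. For CNOT9 and XRN2 the changes were under 0.3 in size and lost the call with either siRNA in each stricter setting named above. PARN kept its calls there. The share of all genes called in opposite directions was not counted.

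Of the 7 measured genes for the LSM1 to LSM8 rings, 1 rose and none fell with siRNA5 in the authors' Wald test, where LSM1 is also the 1 gene of them with an unadjusted p under 0.05. With siRNA8, 1 rose and 1 fell, and 3 had an unadjusted p under 0.05. The shares called, 14.3% with siRNA5 and 28.6% with siRNA8, stand beside 46.4% and 41.5% of all genes. LSM2 has no row. LSM1, the subunit that marks the cytoplasmic decay ring, rose by 0.45 (SE 0.11, adjusted p = 0.000125) with siRNA5 to 136% of NTC (95% interval 118 to 158), and its log2 change with siRNA8 was -0.24 (SE 0.11, adjusted p = 0.0769) per the authors' deposited tables. With Bonferroni adjustment the rise of LSM1 was not called (adjusted p = 0.331). LSM8, which takes its place in the nuclear ring, was not called, with log2 changes of 0.16 (SE 0.084) and 0.10 (SE 0.083) per the authors' deposited tables. The change of LSM1 minus that of LSM8 was 0.28 with siRNA5 (95% interval 0.02 to 0.55), and for siRNA8 the value was -0.34 (95% interval -0.61 to -0.06). LSM1 differed between the siRNAs by 0.68 (SE 0.15, adjusted p = 7.77e-05).

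LSM6, a subunit of either ring, had a value of -0.15 as its log2 change (SE 0.12, not called at an adjusted p of 0.338) with siRNA5, and siRNA8 brought it to 151% of NTC (95% interval 130 to 176), a rise of 0.60 (SE 0.11, adjusted p = 1.16e-06) per the authors' deposited tables. Its difference of -0.74 (SE 0.17, adjusted p = 6.17e-05) was close in size to that of PARN. LSM4 had a log2 change of -0.04 (SE 0.072) with siRNA5 and, when siRNA8 was used, fell by 0.20 (SE 0.073, adjusted p = 0.0186) per the authors' deposited tables. LSM3, LSM5 and LSM7, which are shared by the rings, were not called with either siRNA and stood between 94.9 and 106% of NTC per the authors' deposited tables. Per kb of exon, mean levels of the ring genes ran between 118 for LSM6 and 1945 for LSM7.

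LSM11, which with LSM10 replaces Sm proteins in the U7 particle, rose by 0.63 (SE 0.13, adjusted p = 7.4e-06) with siRNA5 to 155% of NTC (95% interval 130 to 184) per the authors' deposited table. With siRNA8 its log2 change was 0.30 (SE 0.13, adjusted p = 0.0515) per the authors' deposited tables, just above the threshold, and the difference between the siRNAs did not pass (0.33, adjusted p = 0.178). LSM10 was not called, with log2 changes of -0.07 (SE 0.099) with siRNA5 and 0.01 (SE 0.097) with siRNA8, per the authors' deposited tables. The change of LSM11 exceeded that of LSM10 by 0.70 with siRNA5 (95% interval 0.38 to 1.02). For siRNA8 the value was 0.29, with a 95% interval of -0.03 to 0.61 that takes in 0. LSM12, another member of the family, was not called, with a 95% interval of 64.3 to 114% of NTC with siRNA5 around the lowest mean of the 44 genes, 110.

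The direct comparison of siRNA5 with siRNA8 called 13 of the 44 genes, a share of 29.5% against 32.0% of all genes. The change was higher with siRNA5 than with siRNA8 for CNOT6, EXOSC8, ZFC3H1 and LSM1, and lower for CNOT1, CNOT9, PAN2, PARN, EXOSC1, DIS3L2, TTC37, XRN2 and LSM6. Among all genes 17.2% were called higher and 14.8% lower. For the 31 genes not called, 7 had a 95% interval of the difference wholly within -0.3 and 0.3, and for the other 24 the interval reached past one of these bounds. CNOT11, EXOSC6 and EXOSC7 are among these 24, with intervals that leave out 0 before adjustment over all genes.

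Genes that work with these machines were set beside them, from 4 lists. Of 24 measured recruiters and partners of deadenylases, 10 rose and 5 fell with siRNA5, a median log2 change of 0.28, and 9 rose and 1 fell with siRNA8, a median of 0.21, per the authors' deposited tables. CPEB2, which binds cytoplasmic polyadenylation elements, rose by 0.98 (SE 0.13) with siRNA5, and with siRNA8 it was not called at -0.07 (SE 0.14), per the authors' deposited tables, a difference of 1.05 that passed its test (adjusted p = 2.74e-07). BTG1, a relative of the TOB adaptors, fell by 0.57 (SE 0.086) with siRNA5 and rose by 0.31 (SE 0.078) with siRNA8 per the authors' deposited tables. TNRC6C and TNRC6B are scaffolds that bring CCR4-NOT to miRNA targets. TNRC6C was not called with siRNA5 at 0.43 (SE 0.26) and rose by 0.76 (SE 0.25) with siRNA8, on a low mean of 79.6, while TNRC6B rose by 0.44 (SE 0.10) with siRNA5, but with siRNA8 it fell by 0.25 (SE 0.11) per the authors' deposited tables.

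Of the 19 exosome adaptors and cofactors, 4 rose and 5 fell with siRNA5 (median -0.04), and 7 rose and 1 fell with siRNA8 (median 0.15) per the authors' deposited tables. SRRT, also called ARS2, links the cap-binding complex to the exosome adaptors and rose by 0.84 (SE 0.053) with siRNA5 and by 0.31 (SE 0.054) with siRNA8 per the authors' deposited tables. ZC3H18, another link between cap and exosome, fell by 0.53 (SE 0.072) with siRNA5 and was not called with siRNA8, at 0.15 (SE 0.068), per the authors' deposited tables, and the difference of -0.68 passed its test (adjusted p = 1.68e-10). WDR61, a Ski complex subunit, fell by 0.22 (SE 0.090) with siRNA5 and by 0.21 (SE 0.089) with siRNA8 per the authors' deposited tables. Of the 10 genes of decapping and 5′ to 3′ decay, 2 rose and 4 fell with siRNA5 (median -0.11), and 2 rose and 2 fell with siRNA8 (median 0.02). XRN1, the cytoplasmic exonuclease that degrades decapped mRNA, rose by 0.74 (SE 0.096) with siRNA5 and by 0.58 (SE 0.096) with siRNA8 per the authors' deposited tables. NUDT16, a nuclear decapping enzyme, fell by 0.62 (SE 0.099) with siRNA5 and was not called with siRNA8, at -0.20 (SE 0.095), per the authors' deposited tables. EIF4ENIF1, a transporter and repressor that binds the cap-binding protein eIF4E, was not called with siRNA5, at -0.03 (SE 0.086), and fell by 0.50 (SE 0.089) with siRNA8 per the authors' deposited tables. Both differences passed their test, at -0.42 for NUDT16 (adjusted p = 0.0104) and 0.47 for EIF4ENIF1 (adjusted p = 0.000899).

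The list of Sm proteins and U6 and U7 partners of the LSM rings has 20 genes and also holds NAA38, ATXN2 and ATXN2L. Of these 20, 8 rose and 3 fell with siRNA5 (median 0.09), and 4 rose and 1 fell with siRNA8 (median 0.05) per the authors' deposited tables. ATXN2L is among the rises with either siRNA. ZNF473, a U7-associated factor of histone mRNA processing, rose by 0.73 (SE 0.13) with siRNA5 and by 0.78 (SE 0.13) with siRNA8 per the authors' deposited tables. CASP8AP2, also called FLASH, which binds LSM11 in that process, rose by 0.74 (SE 0.098) with siRNA5 and was not called with siRNA8, at -0.06 (SE 0.10), per the authors' deposited tables. SLBP, the histone stem-loop binding protein, rose by 0.17 (SE 0.052) with siRNA5, whereas siRNA8 gave a fall, -0.25 (SE 0.053), per the authors' deposited tables. The differences passed for CASP8AP2, at 0.79 (adjusted p = 2.99e-07), and for SLBP, at 0.42 (adjusted p = 1.49e-07). TUT1, the uridylyl transferase of U6 snRNA, fell by 0.51 (SE 0.13) with siRNA5 and was not called with siRNA8, at -0.08 (SE 0.12), per the authors' deposited tables. None of these lists was tested as a set, and their counts stand beside shares of 46.4% and 41.5% called among all genes.

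**Figure D5:**
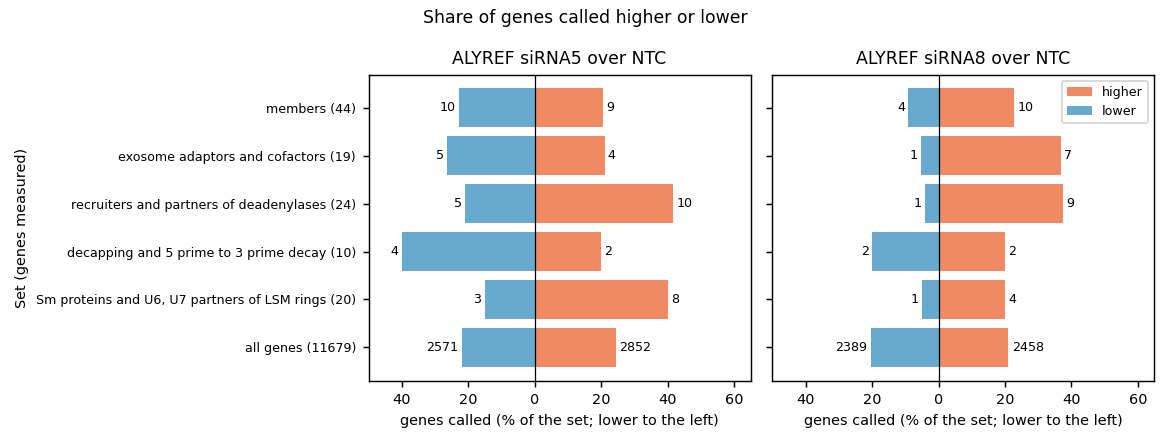
Share of genes called higher (right of 0) or lower (left of 0) in each set, for siRNA5 over NTC on the left and siRNA8 over NTC on the right, with the number of genes beside each bar. The 44 genes show 9 higher and 10 lower with siRNA5 and 10 higher and 4 lower with siRNA8.

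Gene copies and overlaps limit some of these values. In the GENCODE annotation 10 of the 44 genes have a pseudogene that carries their symbol, among them CNOT6L, LSM1, LSM6 and EXOSC3, and exons of 20 are overlapped by a gene on the other strand. The libraries were directional, but none of the sources used here says whether counting used strand, so reads of such partners may be mixed.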

How the data were processed

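Per the labels' protocols, poly(A) RNA was selected on poly-dT beads, made into directional libraries and sequenced as 42-nt read pairs, from cells given fresh medium at 24 h. Per the submitters' processing notes, the tools were DESeq2, HTSeq, Picard and STAR and the build hg19. Per the file headers, the authors deposited for each siRNA a mean normalized count (signal), a log2 fold change with its SE as log2 values, a Wald statistic (score), p-values and adjusted p-values. The statistic, the normal two-sided p and the Benjamini-Hochberg adjustment over all 11681 rows were recomputed and agree within rounding. The rows without a gene name, reads without a feature (6.23% of the sum of means) and ambiguous reads (1.62%), were left out. Each table was assigned by the siRNA number in the library titles, and the direction was read from ALYREF. The planned fit of counts was replaced by the authors' fit, since values per library are not given here.

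The siRNAs were compared with a normal test on the difference of log2 changes, Benjamini-Hochberg adjusted over 11679 genes (Python 3.11.15, scipy 1.17.1). Full values are given for genes called with a change of at least 0.3, and from each list for the largest called rise and fall per siRNA. The genes and lists were chosen with earlier results of these data known. MPP6, a membrane scaffold gene by its row symbol, was left out of the exosome adaptors after its values were seen; with it the list has 20 genes, of which 5 rose and 5 fell with siRNA5 (median 0.02). RQCD1 and CCRN4L have no row under these symbols, and other names of these genes were not searched for the list. Exon lengths came from GENCODE 29 (GRCh38), which matched 44 genes.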

Additional observations from a re-analysis of the deposited data

Results flagged for a closer look

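For 13 of the 44 genes the change with siRNA5 differed from that with siRNA8 by the test of the difference itself, adjusted over all genes. The differences of log2 changes, siRNA5 minus siRNA8, were -0.35 for CNOT1, 0.53 for CNOT6, -0.36 for CNOT9, -0.57 for PAN2 and -0.76 for PARN. They were -0.44 for EXOSC1, 0.33 for EXOSC8, -0.67 for DIS3L2, -0.29 for TTC37 and 0.32 for ZFC3H1. For XRN2, LSM1 and LSM6 they were -0.35, 0.68 and -0.74. All genes called in this way made up 32.0%.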

How the results depend on the processing

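The 19 genes called with siRNA5 became 8 with Bonferroni adjustment over all genes, 9 when tested against an absolute log2 change of 0.1 and 9 with standard errors 1.5 times as large, while 19.1%, 29.7% and 27.1% of all genes were called. The 14 called with siRNA8 became 5, 7 and 7 under these settings, beside 16.4%, 25.2% and 22.3% of all genes. The 13 genes that differed between the siRNAs became 3 with Bonferroni adjustment (11.6% of all genes), 7 with the larger standard errors (15.2%) and 18 when the control variance was rebuilt from the tables (48.1%), which adds CNOT11, EXOSC6, EXOSC7, LSM11 and PAN3. A threshold of 0.01, centring on the median of all genes and a minimum mean of 100 kept all 3 counts within 1.5 times, and with that minimum LSM11 was called with siRNA8. Among all genes with that minimum, 53.8% were called with siRNA5 and 47.8% with siRNA8, and 39.3% differed between the siRNAs. All 16 called changes of at least 0.3 in size kept their direction and call when tested against 0.1, centred, or given the larger standard errors. Bonferroni adjustment ended the calls of LSM1 with siRNA5 and of EXOSC6 and EXOSC7 with siRNA8. No paired analysis was possible because the tables hold no values per library. For the same reason leaving out a replicate and the TMM normalization were not run. Genes with low means, such as LSM12, TOB1 and EXOSC6, have the widest intervals.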
